A study of Homo sapiens with 12 samples.

Results

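The 8 genes described here form the core of cellular iron handling: the ferritin chains FTH1 and FTL, the transferrin receptor TFRC, the iron exporter SLC40A1 (ferroportin), the iron importer SLC11A2 (DMT1), the iron regulatory proteins ACO1 (IRP1) and IREB2 (IRP2), and NCOA4, the receptor that delivers ferritin for degradation. They were taken by symbol from the table of all genes, where all 8 were found among 20332 genes. Transcripts were measured by bulk RNA sequencing of 2 human endometrial cancer cell lines, KLE and Ishikawa. Each line was studied after 24 h with 200 µM CuCl2, a copper salt given in excess, and after 24 h untreated, a control that the labels also call vehicle. All 4 groups grew in the same serum-supplemented medium, each held 3 libraries that the labels give as independent biological replicates, and no iron salt or chelator was part of the design. Library totals ranged between 14050275 and 25057003 counts.

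Iron enters most cells bound to transferrin, which TFRC carries into endosomes, where iron is reduced and leaves through SLC11A2. What is not used at once is stored inside ferritin, a hollow shell in which FTH1 oxidises iron and FTL aids its deposition as mineral. NCOA4 brings ferritin to lysosomes so that its iron can be reused, and SLC40A1 is the only known exporter of iron from human cells. ACO1 and IREB2 bind a hairpin called the iron-responsive element when iron is scarce. On an element in the 5′ untranslated region (UTR), as in both ferritin mRNAs, this blocks translation, and on the elements in the 3′ UTR of TFRC it protects the mRNA from decay. RNA sequencing measures the amount of mRNA, not its translation, so protein levels were not measured.

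The hairpins that set these mRNAs apart were located in the protein-coding transcripts of GENCODE release 29 (GRCh38), and they are printed here because the ferritin, ferroportin and receptor transcripts are described against them below. The search, on the transcript strand only, asked for a C, 5 bases, the loop CAGTGN and 5 bases that pair with the first 5, with G-U pairs allowed. Each sequence is written 5′ to 3′ with 5 flanking bases on both sides, and the capitals mark the loop.
FTH1, 5′ UTR, minus strand, chr11:61967575-61967601: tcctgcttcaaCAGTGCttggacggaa
FTL, 5′ UTR, plus strand, chr19:48965336-48965362: tcttgcttcaaCAGTGTttggacggaa
SLC40A1, 5′ UTR, minus strand, chr2:189580662-189580688: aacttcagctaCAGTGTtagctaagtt
TFRC, 3′ UTR, minus strand, chr3:196050980-196051006: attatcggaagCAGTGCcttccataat
TFRC, 3′ UTR, minus strand, chr3:196050576-196050602: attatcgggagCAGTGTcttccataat
TFRC, 3′ UTR, minus strand, chr3:196050511-196050537: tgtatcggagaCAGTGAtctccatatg
TFRC, 3′ UTR, minus strand, chr3:196050464-196050490: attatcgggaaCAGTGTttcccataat
The FTH1 and FTL stretches differed at 2 of 27 bases, whereas FTH1 and SLC40A1 differed at 14 of 27. TFRC held 4 matches in 3 of its 4 coding transcripts, which differed from each other at between 2 and 10 bases. The match in SLC40A1 lay in 1 of its 5 coding transcripts.

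A match of this kind in the 5′ UTR was found in 0.173% of 19677 protein-coding genes and in 3 of the 8 genes. In the 3′ UTR the share was 0.671%, and TFRC was the single member with one. When 1 unpaired base was allowed on the 3′ side of the stem, which 1.13% of genes matched in the 3′ UTR, the known element of SLC11A2 appeared in 5 of its 18 coding transcripts.
SLC11A2, 3′ UTR, minus strand, chr12:50988269-50988296: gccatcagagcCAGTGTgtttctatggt
IREB2, 3′ UTR, plus strand, chr15:78500970-78500997: atttgctttcaCAGTGAtgagtgagagg
The IREB2 match lay in 1 of its 4 coding transcripts. The letters of ACO1 and NCOA4 transcripts held no match of either form. These are matches to a pattern, and none of the measurements tested binding.

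Ferritin transcripts were among the most abundant mRNAs of these cells, FTH1 more in KLE and FTL more in copper-treated Ishikawa cells. Levels are given first in TPM, a measure of transcript abundance that corrects for length as well as for depth, which can be compared between genes. FTH1 (chromosome 11, 61959718 to 61967660) averaged 19360 ± 486 TPM in copper-treated KLE cells, the highest level of any gene in the table, against 9847 ± 553 TPM in untreated KLE cells, where it ranked 8 (mean ± SD, n = 3 each here and below). In Ishikawa cells it averaged 6551 ± 539 TPM with copper (rank 10) and 2504 ± 266 TPM untreated (rank 35). FTL (chromosome 19, 48965301 to 48966878) averaged 2581 ± 92.6 TPM in copper-treated and 1562 ± 8.88 TPM in untreated KLE cells. In Ishikawa cells FTL averaged 5301 ± 128 TPM with copper and 1722 ± 37.2 TPM untreated. Together the 2 chains made up 2.2 ± 0.0577% of transcripts with copper in KLE cells, against 1.14 ± 0.0529% without. In Ishikawa cells the share was 1.19 ± 0.0651% with copper, against 0.423 ± 0.0252% without. Untreated KLE libraries and copper-treated Ishikawa libraries overlapped in this share.

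The order of TPM levels was the same in 3 of the 4 groups: FTH1, FTL, TFRC, NCOA4, SLC11A2, IREB2, ACO1 and SLC40A1. In copper-treated Ishikawa cells IREB2 stood above SLC11A2, and the rest of the order was kept. The libraries of neighbouring genes in that order did not overlap in any of the 4 groups. The narrowest steps were those between SLC11A2 and IREB2 in untreated Ishikawa cells, with a ratio of means of 1.13, and between SLC11A2 and ACO1 in copper-treated Ishikawa cells, with 1.2. SLC40A1 stood far below the rest, at 5.74 ± 0.97 TPM in copper-treated and 12.4 ± 2.56 TPM in untreated KLE cells, and at 3.66 ± 0.294 TPM in copper-treated and 10.9 ± 0.307 TPM in untreated Ishikawa cells.

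**Figure D1:**
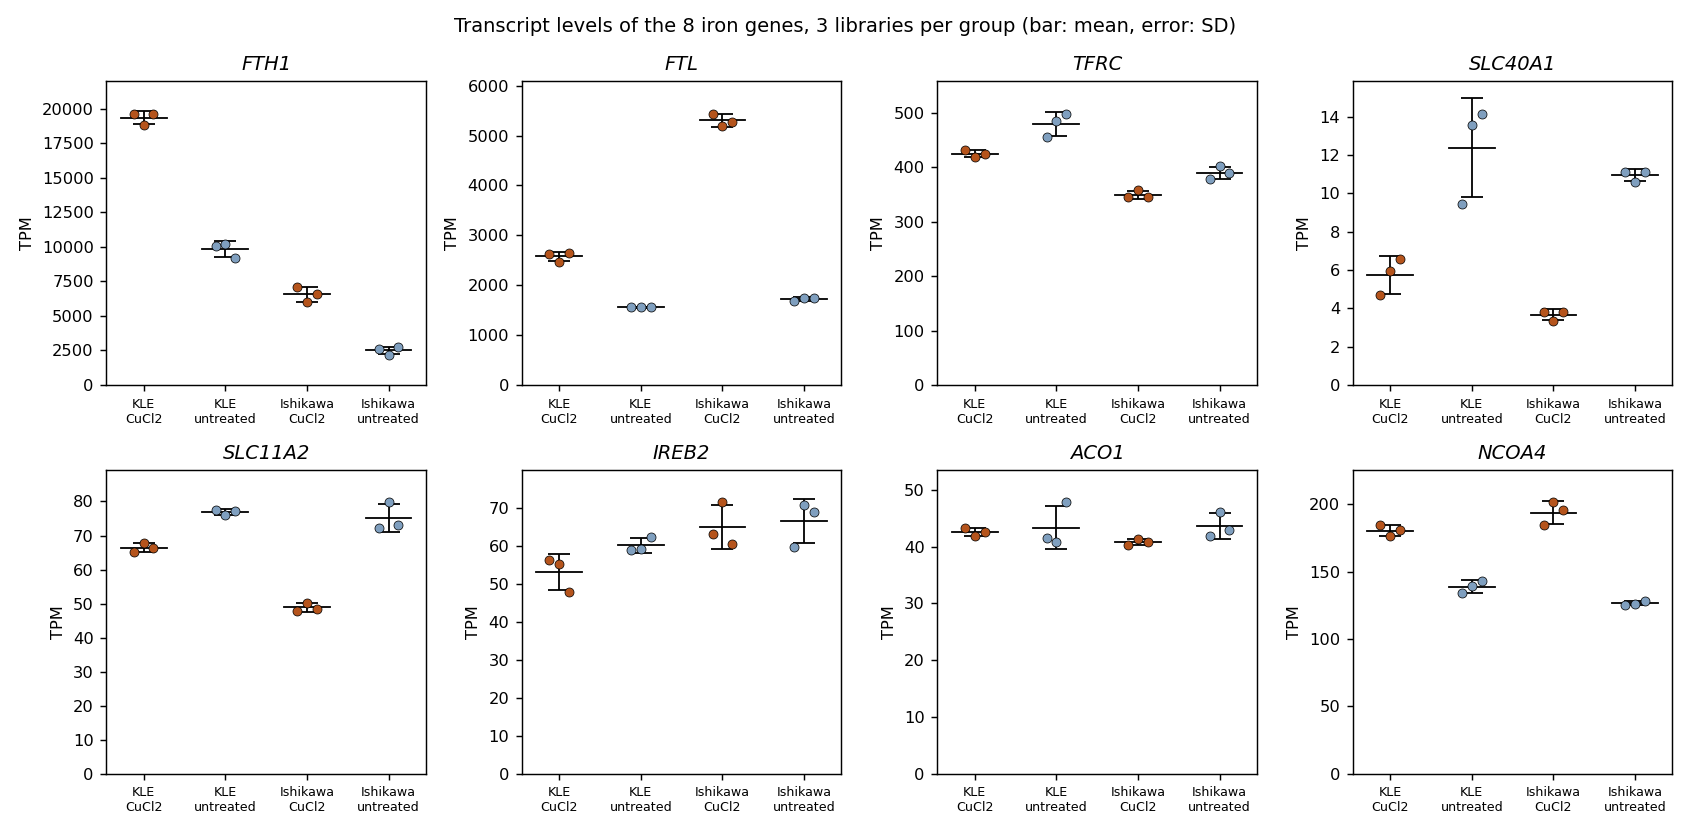
Transcript levels (TPM, linear axes starting at 0) of the 8 iron genes in each of 12 libraries, with 1 panel per gene; points are libraries, the long bar is the mean and the whiskers are the SD of 3 libraries. FTH1, FTL and NCOA4 lie higher and SLC40A1, SLC11A2 and TFRC lower in every copper-treated library than in every untreated library of the same line. IREB2 lies lower with copper in KLE cells and overlaps in Ishikawa cells. ACO1 overlaps in KLE cells and lies lower with copper in Ishikawa cells. For TFRC and ACO1 in Ishikawa cells the direction depended on the scaling.

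Copper against no copper was tested in the 6 libraries of each line with edgeR's quasi-likelihood test on the counts, scaled with TMM factors, and a gene is called where its Benjamini-Hochberg adjusted p over all genes is under 0.05. In KLE cells 7 of the 8 genes were called, 3 of them higher (FTH1, FTL, NCOA4) and 4 lower (TFRC, SLC40A1, SLC11A2, IREB2). Over all 13031 genes tested in that line 50.8% were called, 25.6% higher and 25.2% lower. In Ishikawa cells 5 of the 8 were called, 3 higher (FTH1, FTL, NCOA4) and 2 lower (SLC40A1, SLC11A2), where 69.1% of 13359 genes were called, 33.8% higher and 35.3% lower. The share of members called in Ishikawa cells was no larger than that of all genes. In CPM, which are counts per library total after TMM adjustment, 7 of the 8 genes had copper-treated libraries that did not overlap the untreated ones in KLE cells, 3 all above and 4 all below. Over all genes of that line 56.5% did not overlap, 28.4% above and 28.1% below. In Ishikawa cells 7 of the 8 did not overlap, 5 above (FTH1, FTL, NCOA4, TFRC and ACO1) and 2 below. Over all genes of that line 72.6% did not overlap, 35.4% above and 37.1% below. In TPM the copper-treated Ishikawa libraries of TFRC and ACO1 lay all below the untreated ones, so their side depended on the scaling.

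FTH1, the ferroxidase chain of ferritin, rose in both lines. In KLE cells the 3 copper-treated libraries held 19635, 18796 and 19639.6 TPM, and the untreated ones held 10088, 10239 and 9215 TPM. In Ishikawa cells the copper-treated libraries held 7068, 5993 and 6591 TPM, against 2578, 2209 and 2724 TPM in the untreated ones. No copper-treated library of either line overlapped the untreated ones in FTH1, and the lowest KLE library without copper still lay above the highest Ishikawa library with copper. The log2 fold change was 0.96 ± 0.026 in KLE cells (SE; edgeR adjusted p = 2.87e-29), a 1.945-fold rise that ranked 267 among 13031 genes. In Ishikawa cells it was 1.45 ± 0.0387 (SE; edgeR adjusted p = 2.83e-13), a 2.728-fold rise that ranked 567 among 13359. The share of counts from mitochondrially encoded genes was lower with copper in KLE cells, at 4.05 to 4.72% with copper and 5.91 to 6.82% without, whereas in Ishikawa cells it was 6.2 to 6.4% with copper and 6.16 to 7.21% without, and its part in the results was not tested.

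FTL, the light chain, rose as well, and in Ishikawa cells by more than FTH1. KLE libraries held 2630.2, 2474 and 2639 TPM with copper, against 1558, 1572 and 1556 TPM without. Ishikawa libraries held 5439, 5187 and 5277 TPM with copper, against 1679, 1747 and 1739 TPM without. The untreated libraries of the lines lay close together, and the copper-treated Ishikawa libraries stood apart above all others. Its log2 fold change was 0.76 ± 0.03 in KLE cells (1.692-fold; edgeR adjusted p = 1.11e-23) and 1.81 ± 0.0413 in Ishikawa cells (3.499-fold; edgeR adjusted p = 5.78e-14).

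NCOA4 binds FTH1 and takes ferritin into autophagosomes, and its transcript rose beside that of its cargo. It stood at 184, 177 and 181 TPM in copper-treated KLE libraries, against 134, 139.5 and 143 TPM in untreated ones. Copper-treated Ishikawa libraries held 184, 202 and 196 TPM, against 125, 126 and 128 TPM untreated. All treated libraries lay above all untreated ones of either line, and the copper-treated KLE libraries reached only the low end of the copper-treated Ishikawa range. The log2 fold change was 0.39 ± 0.0345 in KLE cells (edgeR adjusted p = 1.23e-12) and 0.82 ± 0.049 in Ishikawa cells (edgeR adjusted p = 1.56e-09).

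Transcripts of the exporter moved the other way. SLC40A1 fell to 4.68, 5.97 and 6.58 TPM in copper-treated KLE libraries, against 9.45, 13.6 and 14.2 TPM in untreated ones. It fell to 3.83, 3.32 and 3.83 TPM in copper-treated Ishikawa libraries, against 11.1, 10.6 and 11.1 TPM in untreated ones. The groups did not overlap in either line, although KLE libraries varied more among themselves. Copper-treated libraries held between 90 and 162 counts of SLC40A1, the fewest of the 8 genes, and its errors were the widest. The log2 fold change was −1.02 ± 0.133 in KLE cells, where 49.4% of the untreated level was left (edgeR adjusted p = 4.23e-06). In Ishikawa cells it was −1.39 ± 0.115, with 38.07% left (edgeR adjusted p = 5.69e-08).

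SLC11A2, the proton-coupled importer that moves iron out of endosomes and also takes up other divalent metals, fell by less. KLE libraries held 65.2, 67.9 and 66.3 TPM with copper, against 77.5, 76.0 and 77.2 TPM without. In Ishikawa libraries the values were 47.9, 50.3 and 48.5 TPM with copper, against 72.2, 79.8 and 73.2 TPM without. Again no treated library reached an untreated one. The log2 fold change was −0.18 ± 0.0401 in KLE cells (edgeR adjusted p = 0.000238) and −0.43 ± 0.0484 in Ishikawa cells (edgeR adjusted p = 1.47e-06). Transcripts with and without the 3′ UTR element are counted together in these tables, so the isoforms were not separated.

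TFRC, the receptor for transferrin-bound iron, changed little beside the ferritins. KLE libraries held 431, 418 and 424 TPM with copper, against 455, 484 and 498 TPM without, and the groups did not overlap. Its log2 fold change in KLE cells was −0.14 ± 0.029, with 90.84% of the untreated level left (edgeR adjusted p = 0.000104). Ishikawa libraries held 346, 357 and 345 TPM with copper, against 379, 401 and 389 TPM without, a difference that TMM scaling of the counts did not keep. On that scale the log2 fold change was 0.03 ± 0.037 (edgeR adjusted p = 0.42), while with library totals alone it was −0.12 (edgeR adjusted p = 0.00815) and on log2(TPM + 1) it was −0.16 (limma adjusted p = 0.0131). The median of all genes in Ishikawa cells was −0.01 with TMM factors, −0.13 with upper-quartile factors and −0.17 when totals alone were used. Relative to that median, TFRC stood at 0.05 under each of these 3 scalings, so the direction given for TFRC in Ishikawa cells depended on the scaling.

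The transcripts of the regulatory proteins changed little as well. IREB2, the regulatory protein that is degraded when iron is plentiful, held 56.3, 55.3 and 47.7 TPM in copper-treated KLE libraries, against 58.7, 59.2 and 62.4 TPM in untreated ones. Its log2 fold change was −0.13 ± 0.0385 in KLE cells (edgeR adjusted p = 0.00369), a call that was lost on log2(TPM + 1), where the value was −0.18 (limma adjusted p = 0.0666). In Ishikawa cells IREB2 held 63.0, 71.4 and 60.5 TPM with copper, against 59.7, 70.7 and 68.9 TPM without, and the groups overlapped (log2 fold change 0.07 ± 0.058, edgeR adjusted p = 0.295). ACO1, which is a cytosolic aconitase when it carries an iron-sulfur cluster and binds RNA when it does not, held 43.4, 41.8 and 42.6 TPM in copper-treated KLE libraries, against 41.5, 40.8 and 47.8 TPM in untreated ones. In Ishikawa cells ACO1 held 40.3, 41.3 and 40.8 TPM with copper, against 41.8, 46.1 and 42.8 TPM without. ACO1 was called in neither line, with log2 fold changes of 0.02 ± 0.0495 in KLE cells (edgeR adjusted p = 0.721) and 0.10 ± 0.0537 in Ishikawa cells (edgeR adjusted p = 0.127). The direction of ACO1 in both lines and of IREB2 in Ishikawa cells was opposite with library totals, upper-quartile factors or TPM, so none is given.

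**Figure D2:**
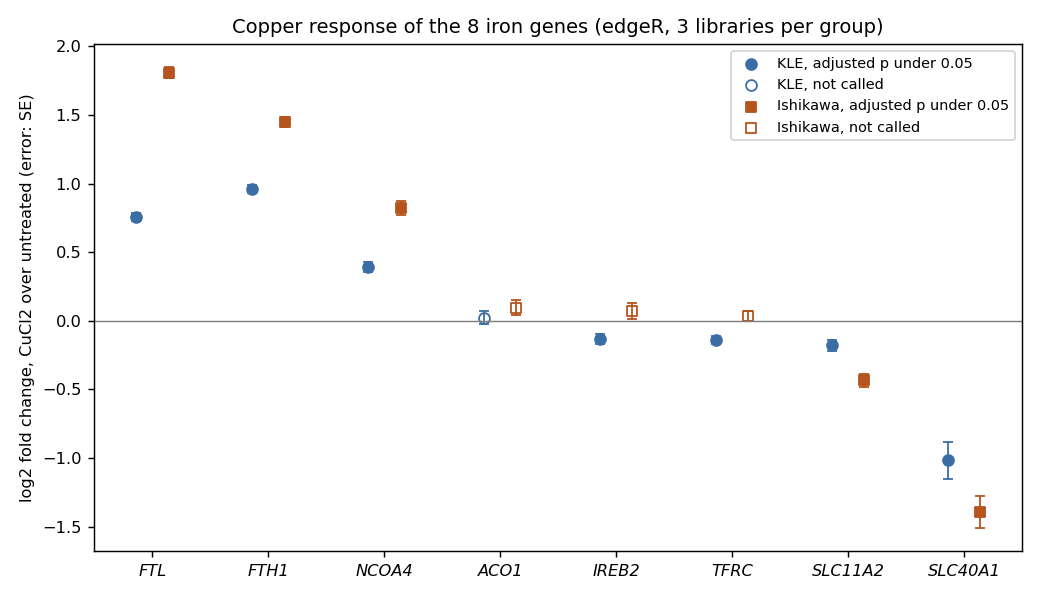
Log2 fold change of the 8 genes, CuCl2 over untreated, with its SE, in KLE cells (blue circles) and Ishikawa cells (orange squares); filled symbols have an edgeR adjusted p under 0.05 and open ones do not. FTL and FTH1 stand highest and SLC40A1 lowest in both lines, and the Ishikawa values lie farther from 0 than the KLE values for FTL, FTH1, NCOA4, SLC11A2 and SLC40A1.

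Whether the copper response differed between the lines was tested as an interaction in a fit of all 12 libraries, as the KLE change minus the Ishikawa change. The difference was called for 5 of the 8 genes, 1 higher and 4 lower in KLE cells, where 45.4% of 13663 genes were called, 24.6% higher and 20.8% lower. FTL differed most, with a log2 difference of −0.99 ± 0.0497 (edgeR adjusted p = 6.74e-13), so its fold rise in KLE cells was 50.29% of that in Ishikawa cells. For FTH1 the difference was −0.43 ± 0.0423 (edgeR adjusted p = 2.85e-08) and for NCOA4 −0.37 ± 0.0605 (edgeR adjusted p = 2.83e-05). SLC11A2 fell less in KLE than in Ishikawa cells, by a log2 difference of 0.31 ± 0.0602 (edgeR adjusted p = 0.00021). The TFRC difference of −0.12 ± 0.0451 passed narrowly (edgeR adjusted p = 0.0392) and was lost with library totals, where it was −0.05 (edgeR adjusted p = 0.385), and on leaving out any of 5 single libraries. For SLC40A1 the difference of 0.43 ± 0.189 was not called (edgeR adjusted p = 0.065), nor was that of IREB2, at −0.15 ± 0.0699 (edgeR adjusted p = 0.0905), or of ACO1, at −0.02 ± 0.0731 (edgeR adjusted p = 0.884).

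Between untreated cells the lines differed mainly in FTH1. KLE cells held 372.4% of the FTH1 counts of Ishikawa cells (log2 difference 1.90 ± 0.0309, edgeR adjusted p = 1.87e-23), while FTL was at 94.62% (log2 difference −0.08 ± 0.0352, edgeR adjusted p = 0.0642). TFRC was higher in untreated KLE cells by 0.36 ± 0.0319 on the log2 scale and NCOA4 by 0.21 ± 0.0432, and IREB2 was lower, at −0.20 ± 0.0492 (edgeR adjusted p = 1.43e-09, 0.00026 and 0.0017). SLC40A1, SLC11A2 and ACO1 were not called (edgeR adjusted p = 0.212, 0.051 and 0.585). So 4 of the 8 genes were called between untreated lines, 3 higher and 1 lower in KLE cells, where 50% of 13663 genes were called, 24.5% higher and 25.6% lower. With copper, 7 of the 8 were called, 4 higher and 3 lower, where 65.7% of genes were, 33.3% higher and 32.3% lower. ACO1 was the one that was not called. FTL was then lower in KLE than in Ishikawa cells, with a log2 difference of −1.07 ± 0.0352 (edgeR adjusted p = 9.04e-18), and FTH1 was higher by 1.47 ± 0.0304 (edgeR adjusted p = 1.22e-21). SLC40A1 and SLC11A2 were higher in copper-treated KLE cells, by 0.62 ± 0.147 and 0.41 ± 0.0434 (edgeR adjusted p = 0.000894 and 1.76e-08). NCOA4, higher in KLE cells without copper, was lower in them with copper, at −0.16 ± 0.0424 (edgeR adjusted p = 0.00199), a call that was lost on log2(TPM + 1), where it was −0.10 (limma adjusted p = 0.0557).

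Because the ferritin shell mixes both chains in proportions that vary between tissues, the ratio of their transcripts within a library was examined, which needs no scaling between libraries. The FTH1 to FTL ratio of TPM was 7.47, 7.6 and 7.44 in copper-treated KLE libraries, against 6.48, 6.51 and 5.92 in untreated ones. In Ishikawa libraries it was 1.3, 1.155 and 1.249 with copper, against 1.535, 1.265 and 1.566 without. The ratio was thus higher with copper in KLE cells, with no overlap, and in Ishikawa cells the groups overlapped. Within one line the exact permutation test of 3 against 3 libraries cannot go below p = 0.1, which the KLE change of 0.25 on the log2 scale reached, and the Ishikawa change of −0.23 had an exact permutation p of 0.2. Over both lines together the mean change was 0.01 (two-sided exact permutation within lines, p = 0.96). The changes of the 2 lines had opposite signs and cancelled in this mean, so it cannot tell whether the ratio changed within a line.

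In counts, which are not scaled to length, the FTH1 to FTL ratio did not overlap in either line. It was 6.84, 7.11 and 6.79 in copper-treated KLE libraries, against 6.01, 6.05 and 5.98 in untreated ones, and 1.18, 1.2 and 1.19 in copper-treated Ishikawa libraries, against 1.56, 1.51 and 1.51 in untreated ones. The changes of 0.20 in KLE and −0.36 in Ishikawa cells on the log2 scale each had the smallest p that the exact permutation test allows, 0.1. The 2 units differed because the transcript length behind the authors' TPM moved for FTH1 from library to library. Relative to the mean over libraries, that length ranged from 0.93 to 1.22 for FTH1, with the highest value in an untreated Ishikawa library, and from 0.996 to 1.0 for FTL. The annotation also names 25 pseudogenes after FTH1 and 16 after FTL, and the tables used hold rows for 0 of them, so reads that such copies share with the genes cannot be told apart.

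**Figure D3:**
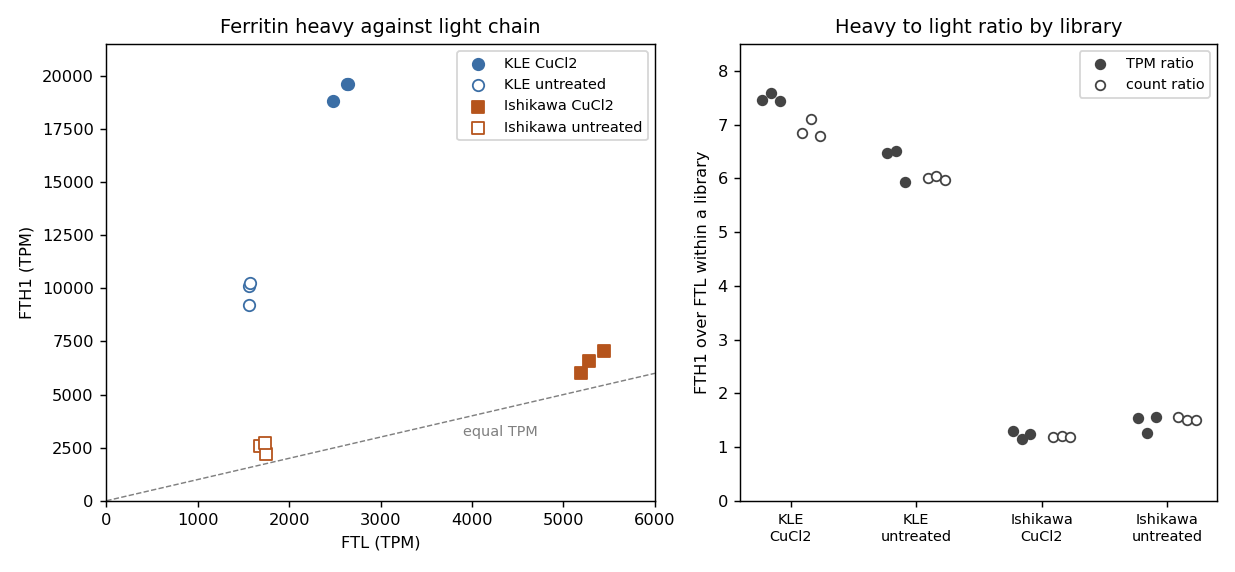
Left, FTH1 against FTL in TPM, 1 point per library, with a dashed line where both are equal. Right, the FTH1 to FTL ratio within each library, from TPM (filled) and from counts (open). KLE libraries lie far above the line of equal TPM and Ishikawa libraries close to it, and the count ratios are higher with copper in KLE cells (6.84, 7.11 and 6.79 against 6.01, 6.05 and 5.98) and lower with copper in Ishikawa cells.

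The ratio of TFRC to FTH1, uptake over storage, fell in both lines. It averaged 0.0219 ± 0.00034 in copper-treated KLE cells, against 0.0488 ± 0.00468 in untreated ones, and 0.0536 ± 0.00549 in copper-treated Ishikawa cells, against 0.157 ± 0.0213 in untreated ones (TPM ratio, SD, n = 3). The log2 changes were −1.15 in KLE and −1.55 in Ishikawa cells, each at the smallest exact permutation p of 0.1. Over both lines the mean change was −1.35, in 6 of 6 treated libraries, with an exact permutation p of 0.005, the smallest of 400 arrangements within lines, and 0.015 after Benjamini-Hochberg adjustment over the 3 ratios. FTH1 moved more than TFRC in both lines, so the fall of this ratio restates the FTH1 rise given above and is not separate support. Any quantity whose groups do not overlap, in the same direction in both lines, reaches this p. Over all genes 56.5% in KLE and 72.6% in Ishikawa cells did not overlap in CPM, in either direction. The ratio of ACO1 to IREB2 was 0.806 ± 0.075 in KLE cells with copper, against 0.721 ± 0.0402 without (SD, n = 3). In Ishikawa cells it was 0.631 ± 0.0492 with copper, against 0.658 ± 0.0398 without. Its mean change over both lines, 0.05 on the log2 scale, did not pass (exact permutation p = 0.505). That mean joined changes of opposite sign, 0.16 in KLE and −0.06 in Ishikawa cells. From counts the change over both lines was 0.09 (exact permutation p = 0.08). The KLE count ratios were 0.593, 0.589 and 0.608 with copper, against 0.52, 0.517 and 0.567 without, a log2 change of 0.16 with no overlap, at the smallest exact permutation p of 0.1.

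The members with a 5′ UTR element did not move one way. FTH1 and FTL rose and SLC40A1 fell in both lines, all 3 with a match printed above. The members with 3′ UTR matches, TFRC, SLC11A2 and IREB2, were lower in KLE cells, and of these SLC11A2 alone was called in Ishikawa cells. In the wider list of 12 mRNAs known for an iron-responsive element, 10 were tested in each line. In KLE cells 5 rose, 3 fell and 2 were not called, with a median log2 fold change of 0.16, against −0.002 over all genes, of which 25.6% rose and 25.2% fell. In Ishikawa cells 7 rose, 2 fell and 1 was not called, with a median of 0.68, against −0.01 over all genes, of which 33.8% rose and 35.3% fell. PFN2, an actin-binding profilin, rose by 0.60 ± 0.0394 in KLE and 1.20 ± 0.0533 in Ishikawa cells (edgeR adjusted p = 1.51e-15 and 7.15e-11). EPAS1, the hypoxia-inducible factor HIF-2α, rose by 0.47 ± 0.038 and 0.89 ± 0.0804 (edgeR adjusted p = 7.66e-14 and 1.54e-07). Both were picked from the list after their values were seen. The search above gave a match of either form in 10 of the 12 genes of the list, but none in PFN2 or CDC42BPA. The EPAS1 match, in the 5′ UTR of 1 of its 2 coding transcripts, needed 1 unpaired base. The list is thus not a list of mRNAs with the printed pattern.

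The remaining iron genes were grouped by role, in 7 lists of 91 genes together that overlap in part and include the 8 members. Of the 77 tested in KLE cells 33 rose, 19 fell and 25 were not called, and of the 79 tested in Ishikawa cells 33 rose, 25 fell and 21 were not called. The share called was 67.5% in KLE cells, against 50.8% over all genes, and 73.4% in Ishikawa cells, against 69.1%. Over all genes 25.6% rose and 25.2% fell in KLE cells, and 33.8% rose and 35.3% fell in Ishikawa cells; the counts of each list below stand beside those shares, and the lists received no test of their own.

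Among storage, chaperone and ferritinophagy genes, 9 of 12 tested rose and 1 fell in KLE cells (median 0.27), and 5 rose and 1 fell in Ishikawa cells (median 0.35). Beside FTH1, FTL and NCOA4, the risers in both lines were TAX1BP1, an autophagy receptor that takes part in the turnover of NCOA4 and ferritin, and GLRX3, a cytosolic glutaredoxin that handles iron-sulfur clusters. TAX1BP1 averaged 191 ± 7.22 TPM in copper-treated and 155 ± 2.97 TPM in untreated KLE cells, and 304 ± 16.5 TPM in copper-treated and 137 ± 4.67 TPM in untreated Ishikawa cells (log2 fold changes 0.33 ± 0.0361 and 1.31 ± 0.0514, edgeR adjusted p = 4.95e-10 and 1.73e-11). GLRX3 rose by 0.52 ± 0.0429 in KLE and 1.10 ± 0.0511 in Ishikawa cells (edgeR adjusted p = 1.34e-13 and 1.15e-10); both genes were picked from the list after their values were seen. The poly(C)-binding chaperones that load iron into ferritin changed little, PCBP1 by 0.10 ± 0.0335 in KLE cells (edgeR adjusted p = 0.0122) and −0.08 ± 0.0495 in Ishikawa cells (edgeR adjusted p = 0.173), an example also picked after its values were seen. PROM2, a membrane protein linked to ferritin export in vesicles, fell in both lines, with log2 fold changes of −0.22 ± 0.057 in KLE and −0.85 ± 0.0834 in Ishikawa cells (edgeR adjusted p = 0.00146 and 3.89e-07).

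Among uptake genes, 1 of 10 tested rose and 5 fell in KLE cells (median −0.20), and 2 of 11 rose and 4 fell in Ishikawa cells, where the median was 0.03 and turned to −0.12 with library totals. The endosomal ferrireductase STEAP3, which works beside TFRC and SLC11A2, fell in both lines, with log2 fold changes of −0.25 ± 0.0729 in KLE and −1.07 ± 0.0748 in Ishikawa cells (edgeR adjusted p = 0.00457 and 9.14e-09). SLC39A8, a metal importer of the ZIP family, averaged 104 ± 3.25 TPM in copper-treated and 156 ± 3.5 TPM in untreated KLE cells (log2 fold change −0.56 ± 0.0359, edgeR adjusted p = 8.34e-17). In Ishikawa cells SLC39A8 averaged 57.9 ± 3.37 TPM with copper and 70.7 ± 1.28 TPM untreated and was not called (log2 fold change −0.10 ± 0.0539, edgeR adjusted p = 0.1), and the response difference was −0.40 ± 0.0616 (edgeR adjusted p = 1.5e-05). Among export genes, 1 of 7 rose and 5 fell in KLE cells, and 1 of 8 rose and 4 fell in Ishikawa cells. NEDD4L, a ubiquitin ligase, was the riser in both, by 0.57 ± 0.0456 in KLE and 1.05 ± 0.0544 in Ishikawa cells (edgeR adjusted p = 8.71e-14 and 3.27e-10). Ceruloplasmin (CP), the copper-carrying ferroxidase that works with SLC40A1, averaged 0.631 ± 0.124 TPM in copper-treated and 2.6 ± 0.409 TPM in untreated KLE cells (log2 fold change −2.17 ± 0.244, edgeR adjusted p = 7.35e-10). In Ishikawa cells CP held 7.31 ± 0.457 TPM with copper and 8.07 ± 0.0719 TPM untreated and was not called (edgeR adjusted p = 0.866), and the difference between the lines was −2.09 ± 0.208 (edgeR adjusted p = 3.74e-08).

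Of the 11 genes of the regulatory proteins and their turnover, 6 rose and 1 fell in KLE cells, and 4 rose and 3 fell in Ishikawa cells. FBXL5, the iron-sensing ubiquitin ligase subunit that targets IREB2, rose by 0.25 ± 0.047 in KLE and 0.16 ± 0.0588 in Ishikawa cells (edgeR adjusted p = 2.22e-05 and 0.0278), a choice made after its values were seen. SKP1, its partner in the ligase, rose by 0.14 ± 0.0344 in KLE and 0.71 ± 0.0437 in Ishikawa cells (edgeR adjusted p = 0.000936 and 2.19e-09). Of the 3 that fell in Ishikawa cells, CIAO3 changed most, by −0.65 ± 0.141, and then CIAO1, by −0.18 ± 0.0542 (edgeR adjusted p = 0.00086 and 0.00848). Neither was called in KLE cells (edgeR adjusted p = 0.886 and 0.645). Genes of mitochondrial iron and heme synthesis split, with 5 of 15 higher and 1 lower in KLE cells, and 5 higher and 9 lower in Ishikawa cells. ALAS1, which starts heme synthesis, and FECH, which inserts iron in its last step, rose in both lines, ALAS1 by 0.27 ± 0.0526 in KLE and 1.09 ± 0.0594 in Ishikawa cells (edgeR adjusted p = 3.95e-05 and 5.96e-10). FECH rose by 0.29 ± 0.0493 in KLE and 0.72 ± 0.048 in Ishikawa cells (edgeR adjusted p = 3.56e-06 and 5.45e-09). Among ferroptosis and lipid peroxide defence genes, 8 of 17 rose and 6 fell in KLE cells, and 11 rose and 4 fell in Ishikawa cells. SLC7A11, the cystine importer, rose by 0.61 ± 0.0332 in KLE and 1.36 ± 0.0596 in Ishikawa cells (edgeR adjusted p = 3.66e-19 and 1.49e-10), while GPX4, the lipid peroxide reductase, fell in both, with log2 fold changes of −0.67 ± 0.0384 in KLE and −0.43 ± 0.0545 in Ishikawa cells (edgeR adjusted p = 2.42e-18 and 5.95e-06).

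**Figure D4:**
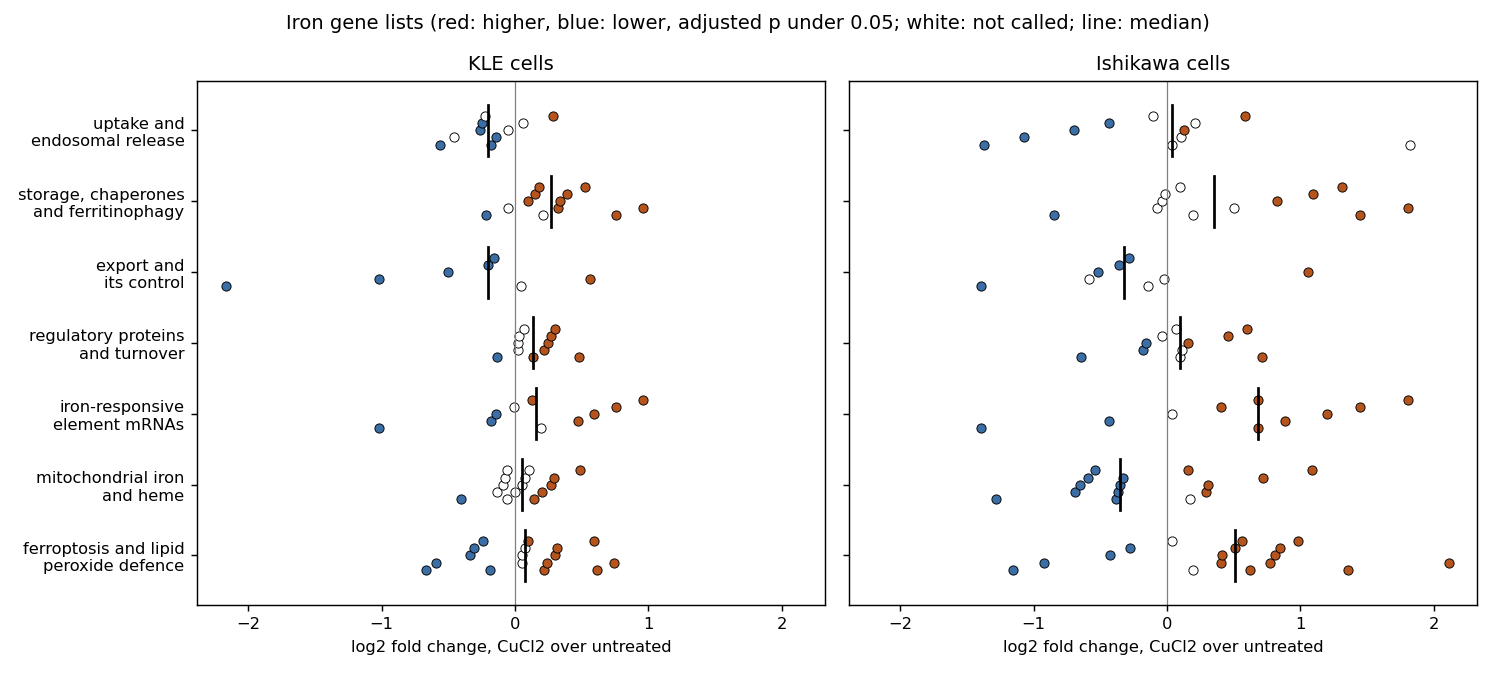
Log2 fold change, CuCl2 over untreated, of each tested gene in 7 iron gene lists, in KLE cells (left) and Ishikawa cells (right); 1 point per gene, red for higher and blue for lower at an edgeR adjusted p under 0.05, white for not called, and a vertical bar at the list's median. Storage genes lie mostly right of 0 in KLE cells, where 9 of 12 rose against 25.6% of all genes, and heme synthesis genes mostly left of 0 in Ishikawa cells, where 9 of 15 fell against 35.3% of all genes; no list was tested.

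The cells carried the epithelial markers that their origin calls for, with all 5 of EPCAM, KRT8, KRT18, PAX8 and CDH1 above 1 TPM in every group. Their summed level was 5201.2 to 5270.5 TPM in copper-treated and 4551.8 to 4783.8 TPM in untreated KLE cells, and 2269.3 to 2364.6 TPM in copper-treated and 3314.0 to 3689.5 TPM in untreated Ishikawa cells. The sum was thus higher with copper in KLE and lower with copper in Ishikawa cells, without overlap in either. In KLE cells only KRT8 (means of 2000 against 1610 TPM) and KRT18 (1700 against 1400 TPM) were higher with copper. EPCAM (993 against 1040 TPM), PAX8 (353 against 438 TPM) and CDH1 (179 against 196 TPM) were lower there, also without overlap. In Ishikawa cells all 5 were lower with copper. The part of these markers in the ferritin values was not tested. Macrophages and red cell precursors handle much iron, and their markers were examined beside the ferritin values. Of 6 leukocyte and macrophage markers, 2 or fewer reached 1 TPM in any group, and none was without counts in a whole group. Their summed level was 29.4 to 37.8 TPM in copper-treated and 20.5 to 25.1 TPM in untreated KLE cells, and 8.92 to 12.1 TPM in copper-treated and 6.81 to 9.21 TPM in untreated Ishikawa cells. Most of it was CD68, a lysosomal protein, at 32.6 ± 4.57 TPM in copper-treated and 19.7 ± 1.93 TPM in untreated KLE cells, whereas PTPRC stayed at or below 1.28 TPM in every library. The summed level of 6 erythroid markers was 4.83 to 5.91 TPM in copper-treated and 4.19 to 5.48 TPM in untreated KLE cells, and 11.7 to 14.1 TPM in copper-treated and 4.96 to 5.67 TPM in untreated Ishikawa cells. Sums of these sizes stand against ferritin sums between 3955.3 and 22278 TPM, and their part in the result was not tested. Counts of 6 stromal transcripts summed to between 286 and 1006, lowest in untreated Ishikawa replicate 2, the library with the most counts. In bulk samples fewer cells of a type and less RNA per cell cannot be told apart.

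For each member the 3 genes with the most similar pattern were looked up among 9580 genes with at least 10 CPM. Likeness was measured by Pearson's r of log2 CPM, after TMM adjustment, over the 12 libraries. These libraries fall into 4 groups, so many genes reach a high r, and the values describe likeness only. FTH1 ran closest to TEAD1 (r = 0.998), CPPED1 (r = 0.997) and CAB39 (r = 0.997), and FTL to ATP6V1C1 (r = 0.996), ABHD4 (r = 0.996) and DLL1 (r = 0.996). NCOA4 ran closest to HSPA8 (r = 0.995), PSMC6 and HACL1, SLC40A1 to PCED1A (r = 0.975), PATZ1 and KIF27, and SLC11A2 to TSHZ1 (r = 0.991), TPX2 and MYO1D. TFRC ran closest to SLC2A1 (r = 0.985), ABLIM1 and SLC39A8, of which the last is also a metal importer, and IREB2 to ZNF793 (r = 0.965), ZNF714 and PJA2. For ACO1, which hardly varied, no gene passed TEAD3 (r = 0.767). Spearman's rho picked at most 1 of the same 3 genes for any member.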

How the data were processed

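The authors' table of all genes holds expected counts and TPM for 20332 genes, per the file headers. The deposited raw count tables of each line hold the same expected counts rounded by the authors, within 0.5. The submitters' processing notes name R 4.2.2, DESeq2, RSEM, HISAT2 2.1.0, fastp 0.18.0 and Bowtie2 2.2.8, and the build GRCh38.p14; which step used which tool is not given in the sources used here. Oligo(dT)-selected libraries were read as 150 bp pairs, per the labels' protocols, and strand is not stated.

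The deposited counts were tested with edgeR 4.0.16 in R 4.3.3 (quasi-likelihood, robust, two-sided, after filterByExpr and TMM scaling, adjusted p under 0.05 over all genes), on the 6 libraries of each line, or all 12 for comparisons between lines. The procedure was tested on simulated data in which few genes changed, in either direction at random. Such data cannot probe the scaling where many genes change. SEs of log2 fold changes were derived from the F statistic. Settings changed one at a time were the scaling (library totals, RLE, upper quartile), the filter (none, or above 1 CPM in 3 libraries), DESeq2 1.42.0, limma-voom and limma 3.58.1 on log2(TPM + 1) or log2(TPM + 0.1) for genes with a mean of at least 1 TPM, the replicate number as a block, all 12 libraries in 1 fit, and leaving out each library. The 3 ratios were tested by two-sided exact permutation.

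The members and lists were chosen with earlier results of these data known. Named genes were the 8 members and a selection of the genes that a rule put forward. From each list and line the rule took up to 2 called genes per direction with the largest change and a mean of at least 1 TPM in either group. Not all of its genes are named, and the selection was made with their values known. Other examples are marked as chosen after their values were seen. Similar genes needed a mean of 10 CPM. Positions and hairpin matches come from GENCODE release 29 (GRCh38).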

Additional observations from a re-analysis of the deposited data

Results flagged for a closer look

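For 5 of the 8 genes the copper response differed between the lines by the interaction test in edgeR, as the log2 change of KLE minus that of Ishikawa cells. The differences were −0.43 for FTH1, −0.99 for FTL, −0.37 for NCOA4, −0.12 for TFRC and 0.31 for SLC11A2. FTH1, FTL and NCOA4 rose in all 3 copper-treated libraries of both lines and rose less in KLE cells. SLC11A2 fell in all 3 copper-treated libraries of both lines and fell less in KLE cells. With TMM factors TFRC was called lower in KLE cells and was not called in Ishikawa cells, and its difference was −0.05 when scaled to library totals (edgeR adjusted p = 0.385).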

How the results depend on the processing

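The 28 member values called in the 5 comparisons kept their direction under all 556 alternative settings and their call under 540. The 12 values not called kept both under 187 of 244, turned direction under 35, 3 of which were calls in the other direction (TFRC in Ishikawa cells with library totals and on both TPM scales), and were called in the same direction under 22. FTH1, FTL, NCOA4, SLC40A1 and SLC11A2 kept direction and call for the copper response of both lines. Depth limits SLC40A1 most, at 90 counts in one library. The causes of the changes below were not tested.

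For the copper response in Ishikawa cells, TFRC was −0.077 with upper-quartile factors, −0.12 with library totals, −0.157 on log2(TPM + 1), −0.158 on log2(TPM + 0.1) and −0.023 with all 12 libraries in 1 fit. ACO1 there was −0.016 with upper-quartile factors, −0.059 with library totals, −0.092 on log2(TPM + 1) and −0.094 on log2(TPM + 0.1), and IREB2 was −0.042, −0.084, −0.033 and −0.033. In KLE cells ACO1 was −0.02, −0.008, −0.022 and −0.023 in the same order, and IREB2 was −0.179 and −0.181 on the 2 TPM scales, without its call. For the difference between the responses, TFRC lost its call at −0.109 with upper-quartile factors, −0.05 with library totals and −0.016 on both TPM scales, and ACO1 turned to 0.052 with library totals, 0.07 on log2(TPM + 1) and 0.071 on log2(TPM + 0.1). IREB2 was called at −0.188 with RLE factors and with DESeq2 and at −0.175 with no count filter, and SLC40A1 at 0.5 with library totals. Between untreated lines, FTL was called at −0.091 with upper-quartile factors, −0.116 with library totals and −0.14 on both TPM scales, and SLC11A2 at 0.099 with limma-voom. IREB2 lost its call at −0.14 and −0.142 on the TPM scales, and ACO1 was −0.00018 with library totals and −0.01 on both TPM scales. Between copper-treated lines, NCOA4 lost its call at −0.102 and −0.103 on the TPM scales, and ACO1 was −0.022 with RLE factors and DESeq2 and −0.004 with no count filter. From counts, the FTH1 to FTL change over both lines was −0.079 and the ACO1 to IREB2 change in Ishikawa cells 0.027.

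Of all called genes in Ishikawa cells 48.9% were higher with TMM factors, 39% with upper-quartile factors, 35.7% with library totals and 34.3% on log2(TPM + 1), and for the difference between responses 54.1% with TMM factors and 66% on log2(TPM + 1).

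Leaving out 1 library at a time, the difference between responses ranged from −0.187 to −0.093 for TFRC, −0.235 to −0.109 for IREB2, 0.269 to 0.575 for SLC40A1 and −0.072 to 0.047 for ACO1. The TFRC call was lost without untreated Ishikawa replicate 1 (−0.105), copper-treated KLE replicate 1 (−0.114) or 2 (−0.109), or untreated KLE replicate 2 (−0.106) or 3 (−0.093). Between untreated lines the range was −0.091 to −0.062 for FTL, 0.092 to 0.106 for SLC11A2, 0.091 to 0.307 for SLC40A1 and −0.022 to 0.078 for ACO1, and between copper-treated lines −0.029 to 0.036 for ACO1. For ACO1 in KLE cells it was −0.023 to 0.082. The FTH1 to FTL change over both lines ranged from −0.039 to 0.038 and the ACO1 to IREB2 change in Ishikawa cells from −0.111 to 0.001.

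Deviations from the group means correlated at 0.0809 to 0.201 in Ishikawa and −0.127 to −0.053 in KLE cells between libraries with the same replicate number. Between different numbers the range was −0.167 to 0.0904 in Ishikawa and −0.00702 to 0.109 in KLE cells. Same-number values were thus all positive in Ishikawa and all negative in KLE cells, and whether the numbers pair libraries was not settled. The main fits left the number out. With the replicate number as a block, the response difference was −0.116 for TFRC (edgeR adjusted p = 0.0646) and 0.446 for SLC40A1 (edgeR adjusted p = 0.0192), and no other member's call changed.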

Other observations

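Some other genes of the same lists, selected from those that the same rule put forward, differed between the lines. ACSL4, which activates the polyunsaturated fatty acids that ferroptosis oxidises, averaged 33 ± 1.37 TPM in copper-treated and 42.9 ± 3.54 TPM in untreated KLE cells, and 23.5 ± 1.65 TPM in copper-treated and 60.2 ± 1.86 TPM in untreated Ishikawa cells. Its response differed by 0.87 ± 0.0765 on the log2 scale, KLE minus Ishikawa (edgeR adjusted p = 5.57e-09). SAT1, a polyamine catabolic enzyme, averaged 294.5 ± 18.3 TPM in copper-treated and 454 ± 10.5 TPM in untreated KLE cells, and 323 ± 3.74 TPM in copper-treated and 358 ± 11.3 TPM in untreated Ishikawa cells. On TMM-scaled counts its log2 fold change was −0.60 ± 0.0426 in KLE cells (edgeR adjusted p = 1.86e-12). In Ishikawa cells it was 0.03 ± 0.0504 and not called (edgeR adjusted p = 0.561), so the lower TPM with copper was not kept on that scale. The response difference of SAT1 was −0.57 ± 0.0709 (edgeR adjusted p = 8.87e-07). PTGS2, the inducible cyclooxygenase, averaged 5.74 ± 0.786 TPM in copper-treated and 5.02 ± 0.38 TPM in untreated KLE cells, and 12 ± 1.24 TPM in copper-treated and 3 ± 0.346 TPM in untreated Ishikawa cells, with a response difference of −1.74 ± 0.161 (edgeR adjusted p = 1.22e-08). AIFM2, a quinone reductase that protects membranes from lipid peroxides, rose in both lines, by 0.74 ± 0.0628 in KLE and 0.99 ± 0.0685 in Ishikawa cells (edgeR adjusted p = 3.34e-13 and 8.45e-09), and its response difference was not called (edgeR adjusted p = 0.0859).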
